A study of Mus with 12 samples.

Results

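Neutrophils are short-lived white cells of the blood that enter tissue in large numbers during inflammation, and genes made mostly by them serve as markers of their RNA in a bulk sample. The 7 marker genes described here were S100a8, S100a9, Csf3r, Retnlg, Ly6g, Clec4d and Ngp, and their rows were found by gene name among rows that carry an Ensembl transcript. All 7 had a row in the first table, of 87235 rows, and 6 had a row in the second, of 40787 rows. Ly6g at E15.5 and E18.5 was not analysed here. RNA had been sequenced from the whole uterus of pregnant 8-week-old ICR mice, an outbred stock, with 1 mouse per library, 3 mice per day and no treatment named. Days E0.5 and E4.5 after mating span the implantation stage and are in the first table, and the late days E15.5 and E18.5 lead up to labor and are in the second. The study compared E0.5 with E4.5 and E18.5 with E15.5 for the changes in progesterone around implantation and labor, and the markers are described in the same comparisons.

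A neutrophil fills itself with granules in the bone marrow, making the enzymes of its first granules early and those of later granules as it matures, and then carries receptors that guide it into tissue. S100a8 and S100a9 encode the partners of calprotectin, the most abundant protein of its cytoplasm. Ngp encodes a granule protein and Retnlg a small secreted protein of mature cells. Csf3r encodes the receptor for the growth factor G-CSF, Ly6g the surface antigen by which mouse neutrophils are usually sorted, and Clec4d a lectin receptor shared with monocytes and macrophages. In the mouse, neutrophils are known to enter the uterine lumen after mating, and they gather in the uterus and cervix around birth.

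Expression was given as FPKM, fragments scaled to transcript length and library size, and in the first table also as counts. The 6 libraries of the first table held between 58020989 and 70906881 counts, so that a library without a count for a gene could still hold up to 3 counts, or a CPM (counts scaled to library size) of 0.0423 to 0.0517, by counting error alone. The depth of the second table is unknown. The libraries of the first table were loosely alike, with Spearman correlations of 0.619 to 0.830 within a day and 0.547 to 0.659 between days. E4.5 replicate 3 stood apart at 0.547 to 0.643 with every other library, also with those of its own day. Replicates 1 and 3 of E0.5 held keratins of squamous epithelium, which lines the cervix and vagina and not the uterine horn, with Krt5 at 4.64 and 6.67 FPKM, and Krt5 was 0 in replicate 2 and 0.862, 2.69 and 0 at E4.5. The summed level of the 8 squamous markers was 18.6, 0.186 and 15.2 FPKM at E0.5, against 1.64, 4.86 and 0.201 FPKM at E4.5. In the second table correlations ran from 0.799 to 0.937, and E15.5 replicate 1 was the least like the rest, at 0.799 to 0.884. Markers of uterine stroma and smooth muscle, 8 of 8, were present in both tables, but E4.5 replicate 3 held far less of them than its day, with a summed level of 156 FPKM against 830 and 605 FPKM, and with Des at 13.0 against 154 and 113 FPKM.

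Apart from S100a8 in 1 mouse at E15.5, all 7 markers were scarce, at or below 2.94 FPKM. Positions are those of the first table, and each row overlaps the RefSeq gene of its name in the mouse build GRCm38. S100a8 lies on chromosome 3 from 90668978 to 90670035, and its partner S100a9 lies close by on the other strand, from 90692632 to 90695721. Csf3r lies on chromosome 4 from 126024550 to 126044440, Retnlg on chromosome 16 from 48872621 to 48874496, and Ly6g on chromosome 15 from 75155240 to 75159126. Clec4d lies on chromosome 6 from 123262111 to 123275265 and Ngp on chromosome 9 from 110419747 to 110423012. Each row pools all transcripts of its gene, and those of S100a8 and Clec4d include transcripts that keep an intron. In bulk RNA, fewer neutrophils and less of a transcript per neutrophil cannot be told apart.

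**Figure D1:**
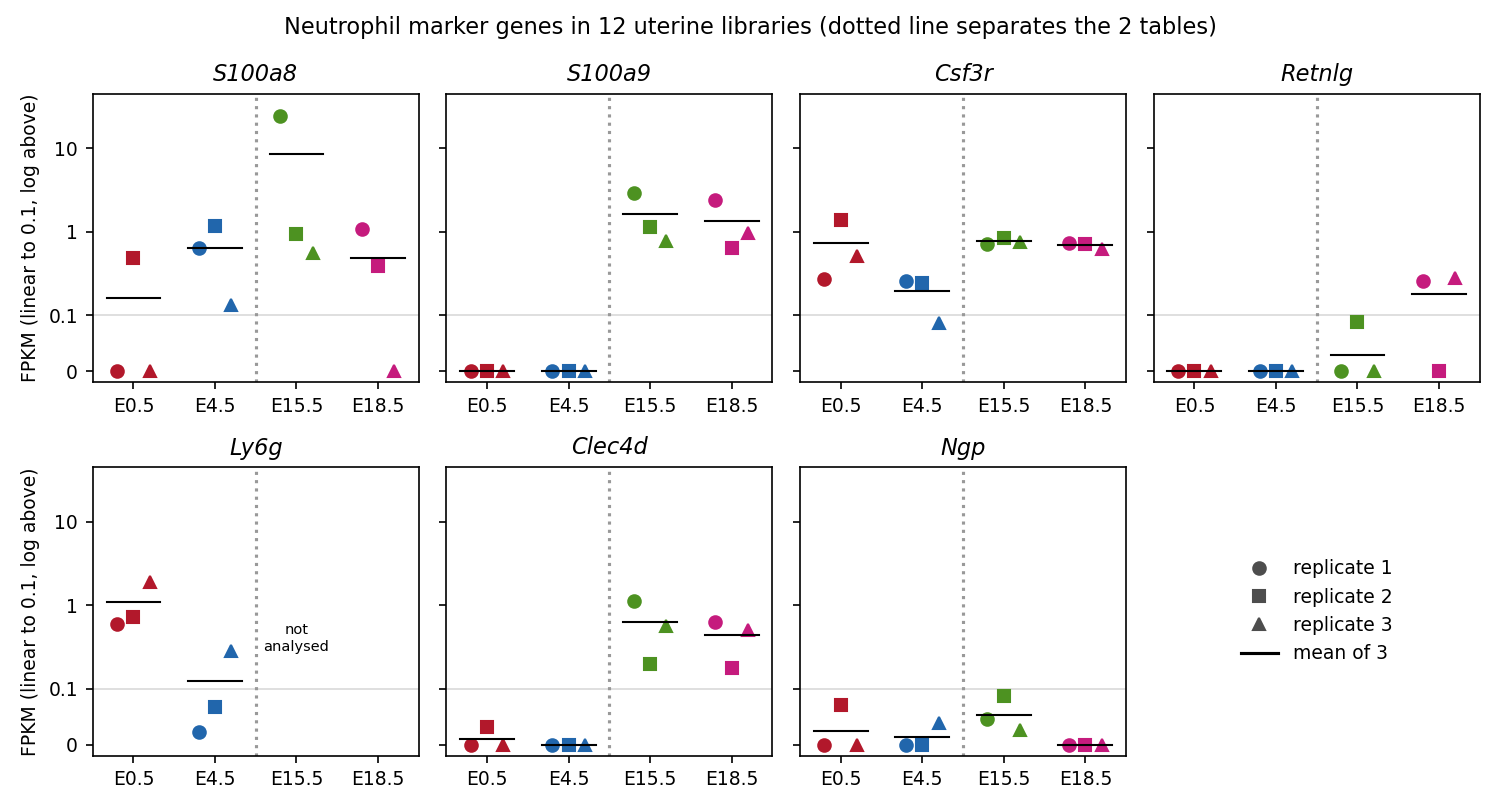
FPKM of the 7 marker genes in each library, on an axis that is linear up to 0.1 and logarithmic above it, by day on the horizontal axis, with a symbol per replicate and a line at the mean of 3. S100a9 and Retnlg lie at 0 in the first 6 libraries, Csf3r and Ly6g lie higher at E0.5 than at E4.5, and S100a8 reaches 24.0 FPKM in E15.5 replicate 1 alone.

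Between E0.5 and E4.5 the receptor Csf3r and the surface antigen Ly6g were higher at E0.5, while the calprotectin gene S100a8 had more counts at E4.5 and its partner S100a9 had none on either day. Ly6g had 49, 51 and 158 counts in the 3 mice at E0.5 and 2, 7 and 22 at E4.5. Every E0.5 mouse was above every E4.5 mouse, at 0.599, 0.715 and 1.92 FPKM against 0.0218, 0.0667 and 0.281 FPKM. The log2 fold change was 3.05 ± 0.95 (SE), with an edgeR p of 0.0153 and an adjusted p of 0.168. Without E4.5 replicate 3, the library that stood apart, it was 4.22, with an adjusted p of 0.0470, and 3526 of all rows passed by adjusted p in that fit. Without E0.5 replicate 3, the mouse with most Ly6g, the log2 fold change was 2.35 and the edgeR p was 0.0699. The row is on the plus strand and is overlapped by a row of Ly6a and 9030619P08Rik on the minus strand, which had 6218 to 13457 counts at E0.5 and 751 to 7040 at E4.5. The sources used here do not say whether the counting used strand, so reads of the overlapping rows, and of near-identical Ly6 genes, may have been shared.

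Csf3r had 85, 373 and 163 counts at E0.5 and 79, 74 and 26 counts at E4.5. In FPKM this was 0.275, 1.39 and 0.517 against 0.254, 0.245 and 0.0868, so that the groups did not overlap but the lowest E0.5 mouse lay just above the highest E4.5 mouse. The log2 fold change was 1.89 ± 0.72 (SE), with an edgeR p of 0.0354 and an adjusted p of 0.246. Without E0.5 replicate 2, which had the most Csf3r, the log2 fold change fell to 1.01 with a p of 0.172. Leaving out any 1 of E4.5 replicates 1, 2 and 3 also ended the call, with a p of 0.0527, 0.0627 and 0.0644 by edgeR, while the fold change was 2.17, 2.07 and 1.53. That E0.5 mouse was the one with the squamous keratins Krt5 and Krt13 at 0.

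S100a8 had counts in 1 of 3 mice at E0.5, with 0, 25 and 0 counts, and in 3 of 3 at E4.5, with 39, 66 and 8 counts. The corresponding FPKM were 0, 0.478 and 0 at E0.5 and 0.640, 1.16 and 0.134 at E4.5. The groups overlapped, and the log2 fold change of −1.99 ± 1.80 (SE), with a 95% confidence interval from −6.28 to 2.30, did not pass the edgeR test, at a p of 0.308 and an adjusted p of 0.613. E0.5 replicate 2 decided this value. Without it S100a8 had no count at E0.5 and met the criterion as lower at E0.5, opposite to Ly6g and Csf3r, at an edgeR p of 0.00973 and an adjusted p of 0.241. S100a9 and Retnlg had 0 counts in all 6 libraries. Clec4d had 4 counts in E0.5 replicate 2 and none elsewhere, and Ngp had 7 counts in that library and 4 in E4.5 replicate 3. The same E0.5 mouse thus held every Clec4d count and was the only E0.5 mouse with S100a8 or Ngp counts.

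Rows were tested where their 6 libraries averaged 0.1 FPKM or more, and 3 of the 7 markers passed this filter. The study called a gene DE, differentially expressed, when its log2 fold change was 1 or more in size and its unadjusted p was below 0.05. By this criterion 2 of these 3 markers were called, Ly6g and Csf3r, both higher at E0.5, as were 12.1% of the 52738 rows tested in either direction and 6.13% as higher at E0.5. No marker had an adjusted p under 0.05 by edgeR, against 1.4% of all rows, while 2 of 3 had an unadjusted p under 0.05, as had 17.6% of all rows. DESeq2 gave an adjusted p of 0.0202 for Ly6g alone among the markers, and called 5297 of all rows in this way. Both called markers had groups that did not overlap, with every E0.5 library higher, as did 12.3% of all rows tested. Within E0.5, the mean level was 1.08 ± 0.73 FPKM for Ly6g and 0.728 ± 0.59 FPKM for Csf3r (SD, n = 3), which overlapped, and S100a8 was below both in 3 of 3 mice. At E4.5 the order was S100a8 at 0.643 ± 0.51, Csf3r at 0.195 ± 0.094 and Ly6g at 0.123 ± 0.14 FPKM (SD, n = 3), and all neighbours in this order overlapped.

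Between E18.5 and E15.5 none of the markers was called, and the clearest feature was 1 mouse with high S100a8. S100a8 was 24.0, 0.936 and 0.554 FPKM at E15.5 and 1.08, 0.388 and 0 FPKM at E18.5. E15.5 replicate 1 was far above the other 5 libraries, which overlapped. The log2 fold change was −2.71 ± 1.48 (SE), with a 95% confidence interval from −6.22 to 0.79, a limma p of 0.110 and an adjusted p of 0.508. Without that mouse the fold change was −1.09, with a p of 0.334 by limma.

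S100a9, the partner of S100a8, was 2.94, 1.15 and 0.779 FPKM at E15.5 and 2.40, 0.634 and 0.974 FPKM at E18.5. The days overlapped, and the first replicate was the highest on both. Its log2 fold change of −0.25 ± 0.59 (SE) had a limma p of 0.681. The ratio of S100a8 to S100a9 was 8.15 in E15.5 replicate 1, while it was 0.815 and 0.710 in the other E15.5 mice and 0.451, 0.612 and 0 at E18.5. S100a8 thus exceeded S100a9 in 1 of 6 mice, and FPKM, being per length, allow this comparison of levels.

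**Figure D2:**
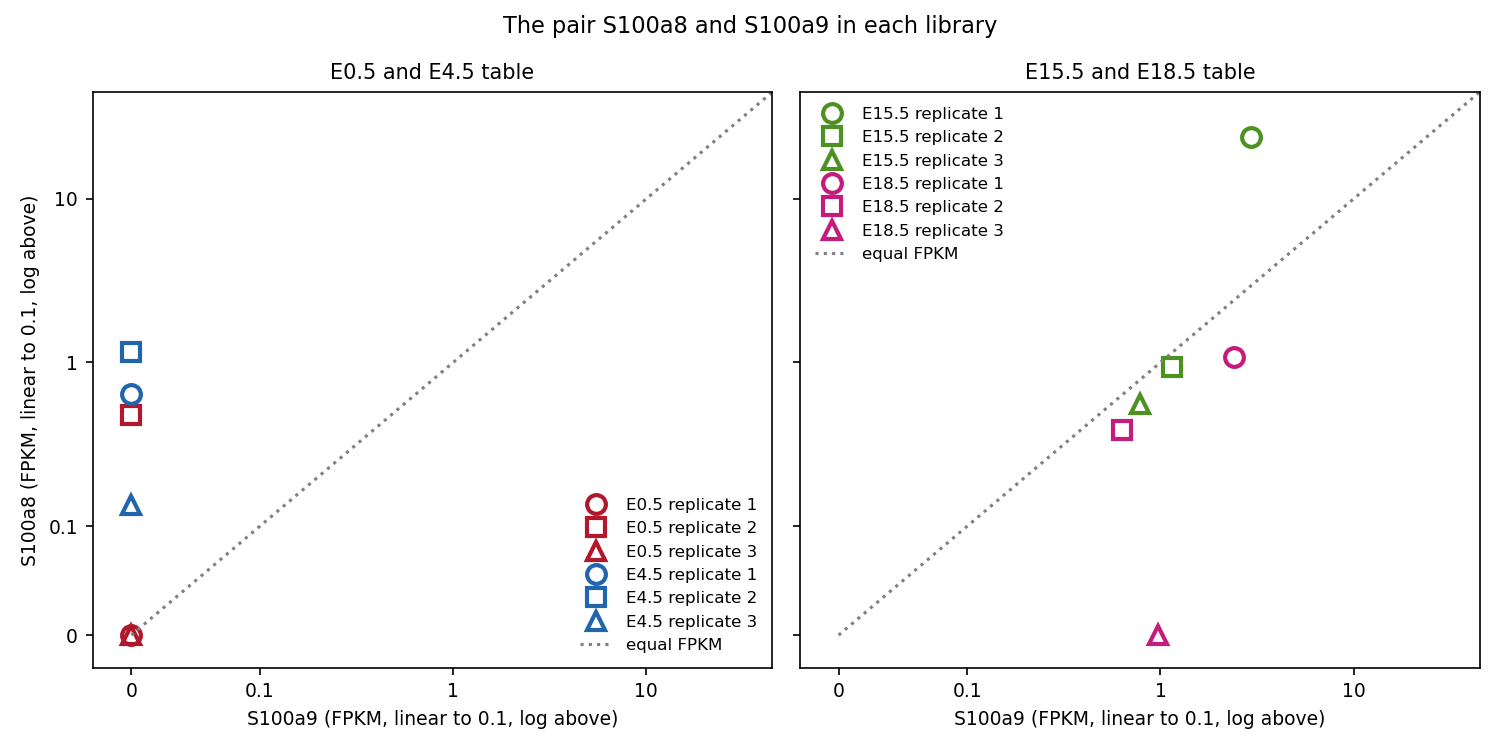
S100a8 against S100a9 in each library, in FPKM on axes linear up to 0.1 and logarithmic above, with the first table on the left and the second on the right, and a dotted line where both are equal. On the left S100a9 is 0 throughout while S100a8 reaches 1.16 FPKM, and on the right E15.5 replicate 1 alone lies above the line.

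Of the tested markers in the second table, the receptor gene Csf3r varied least relative to its level. It was 0.722, 0.836 and 0.755 FPKM at E15.5 and 0.740, 0.719 and 0.624 FPKM at E18.5, and every library lay in this narrow band. The log2 fold change was −0.13 ± 0.21 (SE), with a 95% confidence interval from −0.62 to 0.35, which leaves out a change of 1 in either direction, and the limma p was 0.537. Clec4d was 1.11, 0.198 and 0.562 FPKM at E15.5 and 0.627, 0.178 and 0.512 FPKM at E18.5, also overlapping, with a log2 fold change of −0.32 ± 0.59 (SE) and a limma p of 0.612.

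The last 2 markers were the lowest. Retnlg was listed at 0, 0.0877 and 0 FPKM at E15.5 and at 0.258, 0 and 0.280 FPKM at E18.5, with a log2 fold change of 0.95 ± 0.63 (SE) and a limma p of 0.173. Without E18.5 replicate 2 it met the criterion, at a log2 fold change of 1.58 and a p of 0.0153, with an adjusted p of 0.409. Retnlg passed the filter, at a mean of 0.104 FPKM, only through E18.5, where its mean was 0.179 against 0.0292 FPKM at E15.5. That call is therefore no support for a change. Ngp was listed at 0.0451, 0.0877 and 0.0262 FPKM at E15.5 and at 0 in the 3 mice at E18.5, and it was below the filter of 0.1 FPKM. The groups did not overlap, lower at E18.5, as in 8.79% of all rows tested, and with no filter its limma p was 0.0137 with an adjusted p of 0.334.

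Of the 6 markers with a row in the second table, 5 entered the test and 0 met the criterion, against 5.6% of the 29597 rows tested. At an unadjusted p under 0.05 limma gave 0 of 5, against 12% of all rows, and by adjusted p 0 of 5, against 0.0439%. At E15.5 the mean levels were 1.62 ± 1.2 FPKM for S100a9, 0.771 ± 0.059 for Csf3r and 0.623 ± 0.46 for Clec4d (SD, n = 3), and at E18.5 they were 1.34 ± 0.94, 0.694 ± 0.062 and 0.439 ± 0.23. All neighbours in either order overlapped. S100a8 has no place in it, since its mean of 8.48 ± 13 FPKM at E15.5 came from 1 mouse and it was listed at 0 in 1 at E18.5.

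The effect of the day was then compared between the stages, as the log2 fold change of E0.5 against E4.5 minus that of E18.5 against E15.5, in limma over the 12 libraries. For Csf3r, called in the first stage only, the difference was 1.44 ± 0.63 (SE), with a p of 0.0420 and an adjusted p of 0.255. At an unadjusted p under 0.05 stood 17.9% of the 25345 pairs of rows tested, and 2.77% had an adjusted p under 0.05, with neither Csf3r nor S100a8 among the latter. The difference was 0.97 for S100a8, with a limma p of 0.621. S100a9, at 0 throughout the first stage, and Clec4d, with 4 counts in 1 library there, entered only through the second stage, and their differences say nothing of a change between stages. Ly6g, Retnlg and Ngp were not tested.

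Other genes linked to neutrophils were counted in 4 lists, by the role of their products. The last list holds genes whose products act on neutrophils, and which cells made them was not tested. Among 6 genes for granule proteins made early, 2 entered the test in the first stage and both met the criterion, in opposite directions. Ctsg, the gene called as lower at E0.5, passed the filter only through E4.5. Prtn3, which encodes proteinase 3, was 0.637, 0.652 and 1.59 FPKM at E0.5, against 0.0687, 0.171 and 0.153 FPKM at E4.5, without overlap. Its log2 fold change was 2.84 ± 0.58 (SE), with an adjusted p of 0.0704 by edgeR. Ctsg, which encodes cathepsin G and is also made by mast cells, had no count at E0.5, while it was 0.897, 0.544 and 0 FPKM in the E4.5 mice. Against a floor of 3 counts per library, its level was at least 13.4-fold lower at E0.5, or at least 7.53-fold without E4.5 replicate 1 and 20.2-fold without E4.5 replicate 3. The direction was kept without any 1 library, although the call was lost without any 1 of the E0.5 mice or of E4.5 replicates 1 and 2, at a p of 0.0524 to 0.0785 by edgeR. Ms4a3, a marker of neutrophil and monocyte precursors named here after its values were seen, was at 0 in all 6 libraries. In the second stage 2 of the 4 genes with a row were tested, and Ctsg fell from 42.2, 17.0 and 14.8 FPKM at E15.5 to 1.92, 2.01 and 6.08 FPKM at E18.5, without overlap. Its log2 fold change was −2.89 ± 0.55 (SE), with a limma p of 0.00115 and an adjusted p of 0.144. Of 6 mast cell markers 3 were higher at E18.5, Cpa3, Mcpt4 and Tpsb2, while Kit had a log2 fold change of −0.58 that did not pass, and the list had a summed level of 8.46 to 17.5 FPKM at E15.5 and of 17.6 to 27.3 FPKM at E18.5.

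Among 7 genes for granule proteins made later, 6 were tested in the first stage, 3 met the criterion as higher at E0.5 and 2 passed by adjusted p. Of the 6, 4 had positive fold changes. Camp and Mmp8, named here after their values were seen, went the other way, with log2 fold changes of −2.19 and −2.15 that did not pass. The chitinase-like gene Chil3, also named after its values were seen, was below the filter. It had 15, 19 and 25 counts in the E0.5 mice and none in the E4.5 mice. With the floor of 3 counts per library, the E0.5 level exceeded that of E4.5 by a factor of 6.66 or more. Leaving out any 1 library kept this bound at 6.05 or above. Lcn2, which encodes lipocalin 2, a protein that binds bacterial iron carriers, was 321, 308 and 318 FPKM at E0.5, against 2.21, 1.22 and 2.23 FPKM at E4.5. Its log2 fold change was 7.40 ± 0.35 (SE), with an edgeR adjusted p of 0.00396, or 0.0582 without E0.5 replicate 2, where the fold change was 7.41 and 0 of all rows passed by adjusted p. Ltf, which encodes lactoferrin, was 537, 347 and 470 FPKM at E0.5, against 2.99, 5.15 and 20.0 FPKM at E4.5, with a log2 fold change of 5.63 ± 0.79 (SE) and an edgeR adjusted p of 0.0327, which rose to 0.0875 to 0.132 without any 1 library other than E4.5 replicate 3. Mmp9, which encodes gelatinase B, was 1.53, 4.05 and 4.58 FPKM at E0.5, against 0.497, 0.906 and 0.778 FPKM at E4.5, with an edgeR adjusted p of 0.0706. Lactoferrin and lipocalin 2 are also made by epithelium, and in the same libraries 3 of 6 markers of uterine epithelium met the criterion as higher at E0.5. The summed level of these 6 was 216.9 to 255 FPKM at E0.5, against 72.8 to 150.6 FPKM at E4.5. At E0.5 both genes far exceeded every marker in level, while Lcn2 at E4.5 was near that of the markers, the summed FPKM of the 7 markers being 0.874 to 2.69 at E0.5 and 0.540 to 1.47 at E4.5. The part of epithelium in these values was not tested.

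In the second stage 5 of the 7 genes for later granule proteins were tested. Ltf was 11.0, 38.2 and 64.5 FPKM at E15.5 and 247, 218 and 161 FPKM at E18.5, without overlap, with a log2 fold change of 2.77 ± 0.60 (SE), a limma p of 0.00249 and an adjusted p of 0.168. Chil3, a chitinase-like protein of maturing neutrophils and macrophages, was lower at E18.5, with a log2 fold change of −1.13 ± 0.44 (SE) and an adjusted p of 0.381 by limma. The call was lost without any 1 of E15.5 replicates 1 and 3 and E18.5 replicates 2 and 3, at a p of 0.0661 to 0.116. Lcn2, named here after its values were seen, was 39.99, 89.8 and 121 FPKM at E15.5 and 101, 60.7 and 68.1 FPKM at E18.5, with a log2 fold change of −0.02 ± 0.42 (SE). Markers of uterine epithelium again moved with Ltf, with 3 of 6 higher at E18.5 and a summed level of 197 to 412 FPKM at E15.5 and of 593 to 819 FPKM at E18.5, and their part was not tested.

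**Figure D3:**
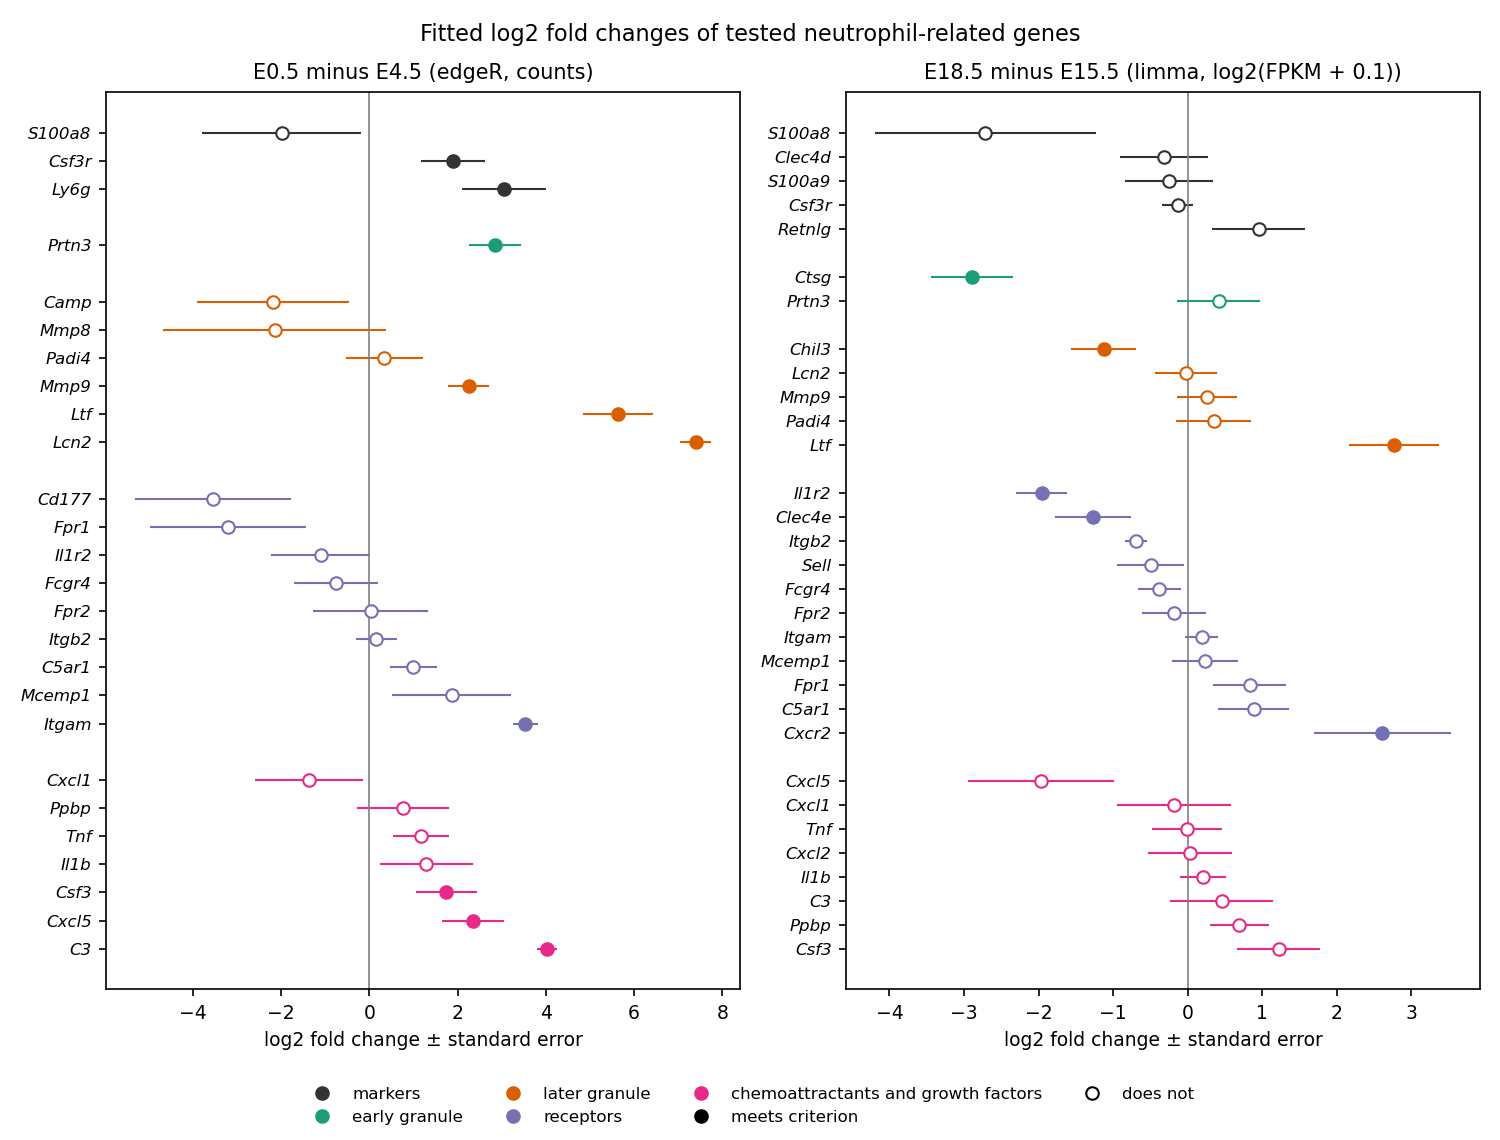
Fitted log2 fold changes with standard errors of the tested markers and of the 4 neutrophil lists, for E0.5 minus E4.5 on the left and E18.5 minus E15.5 on the right, on separate scales, with filled points for genes that met the criterion. Ctsg, without a count at E0.5, is left out on the left, where Lcn2 at 7.40 and Ltf at 5.63 lie farthest right, and on the right no marker is filled.

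Among 13 surface receptors of neutrophils, 9 were tested in the first stage and 1 met the criterion. The row of Itgam, which encodes the integrin chain CD11b of neutrophils, monocytes and macrophages, also takes in Gm49368 and Gm45700. It was 5.37, 7.88 and 9.53 FPKM at E0.5, against 0.666, 0.569 and 0.763 FPKM at E4.5, with a log2 fold change of 3.53 ± 0.28 (SE) and an edgeR adjusted p of 0.0105, or 0.1001 without E0.5 replicate 2, 0.0665 without E0.5 replicate 3 and 0.0621 without E4.5 replicate 1. Markers of monocytes and macrophages moved with Itgam, since 10 of 10 had a positive fold change, beside 25557 of the 52738 rows tested. Of the 10, 4 met the criterion as higher at E0.5, and their summed level was 88.1 to 123 FPKM at E0.5, against 49.7 to 52.6 FPKM at E4.5. The row of Cd68, at 11.2 to 13.5 FPKM at E0.5 and 10.3 to 12.2 FPKM at E4.5, also takes in Eif4a1, Senp3 and other genes. The part of these cells in the level of Itgam was not tested. Cxcr2, the main chemokine receptor of neutrophils, was below the filter and is named here after its values were seen. It was 0.0155, 0.282 and 0.0418 FPKM at E0.5 and had no count at E4.5. Against the same floor it was at least 10.0-fold higher in the E0.5 mice, and its highest value was in E0.5 replicate 2, as for Csf3r. That mouse had 64 of the counts, against 5 and 12 in the other E0.5 mice, and without it the bound was 2.69-fold. The median log2 fold change of the 9 receptors was 0.03, beside −0.03 over all rows tested.

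In the second stage 11 receptors were tested, of which 1 was higher and 2 were lower at E18.5. Cxcr2 was 0.191, 0.0646 and 0.0104 FPKM at E15.5 and 1.62, 2.83 and 0.139 FPKM at E18.5, so that the groups overlapped, with a log2 fold change of 2.61 ± 0.92 (SE) and a limma adjusted p of 0.337. The call was lost without any 1 of E15.5 replicates 2 and 3 and E18.5 replicates 1 and 2, at a p of 0.0634 to 0.0842. Il1r2, the decoy receptor for interleukin-1, was 34.5, 46.4 and 39.8 FPKM at E15.5 and 7.13, 8.32 and 17.8 FPKM at E18.5, without overlap. Its log2 fold change was −1.96 ± 0.34 (SE), with a limma adjusted p of 0.123. The summed level of the markers with a row was 28.8, 3.29 and 2.68 FPKM in the E15.5 mice. The part of other cells in the level of Il1r2 was not tested. Clec4e, a lectin receptor encoded beside Clec4d, was lower with a log2 fold change of −1.27 ± 0.51 (SE) and a limma adjusted p of 0.398, and its call was lost without any 1 library other than E15.5 replicate 3, at a p of 0.0587 to 0.138.

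Among 12 chemoattractants and growth factors that draw or sustain neutrophils, 7 were tested in the first stage and 3 met the criterion, all higher at E0.5. C3, the complement component whose cleavage yields attractant fragments, was 707, 578 and 695 FPKM at E0.5, against 41.7, 46.0 and 35.6 FPKM at E4.5. Its log2 fold change was 4.02 ± 0.22 (SE), with an edgeR adjusted p of 0.00457. Without E0.5 replicate 2 these were 4.11 and 0.0582, and 0 of all rows passed by adjusted p. In the same libraries 3 of 6 markers of uterine epithelium met the criterion as higher at E0.5, and their part in the level of C3 was not tested. Cxcl5, a ligand of Cxcr2, was 1.97, 2.70 and 0.977 FPKM at E0.5, against 0.310, 0.690 and 0.117 FPKM at E4.5, with a log2 fold change of 2.34 ± 0.70 (SE) and an edgeR adjusted p of 0.154. Csf3, which encodes G-CSF, the ligand of Csf3r, was 2.55, 3.30 and 6.56 FPKM at E0.5, against 0.291, 1.67 and 1.86 FPKM at E4.5, with a log2 fold change of 1.74 ± 0.69 (SE) and an edgeR adjusted p of 0.261, and its call was lost without E0.5 replicate 2 or 3 or E4.5 replicate 2, at a p of 0.0630, 0.146 and 0.0595. Ligand and receptor genes were thus both higher at E0.5 without overlap, although neither passed by adjusted p. In the second stage 8 were tested and 0 met the criterion. C3, the highest of them, was 451.3, 1962 and 2623 FPKM at E15.5 and 1976, 1740 and 1750 FPKM at E18.5, with the low value in E15.5 replicate 1, and its limma p was 0.528.

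Markers of the other cells a uterus could hold were counted in the same libraries. In the first stage, squamous epithelium had 2 of 7 tested markers called as higher at E0.5, Krt6a and Sprr3. Both were at 0 at E4.5 and in E0.5 replicate 2, so that their groups overlapped and they passed the filter only through E0.5. Of 2 tested eosinophil markers 1 was higher, Alox15, whose groups overlapped. The other, Il5ra, had 203 of its counts in E4.5 replicate 2, 4 in E0.5 replicate 2 and none elsewhere. Of 5 tested mast cell markers Kit was called, as lower at E0.5, while the other 4 had positive fold changes that did not pass and were highest in E0.5 replicate 1. The summed level of the 6 was 11.5, 1.85 and 4.53 FPKM in the E0.5 mice, against 5.84, 6.60 and 6.23 FPKM in the E4.5 mice, so that the days overlapped and 2 of 3 E0.5 mice were below every E4.5 mouse. Of the markers of T, B and NK cells, 0 of 3 tested met the criterion. Markers of red blood cells, which give the blood in a sample, had 0 of 4 called, and their summed level was 97.3 to 267 FPKM at E0.5 and 63.6 to 704 FPKM at E4.5, so that the days overlapped. In the second stage they had 1 of 6 lower at E18.5, Slc4a1, and again overlapped, at 889 to 1676 FPKM at E15.5 and 543 to 1283 FPKM at E18.5. Monocytes and macrophages had 0 of 10 called there, and the natural killer markers Ncr1 and Klrb1c were lower at E18.5. Of 6 tested squamous markers 1 was lower at E18.5, Krtdap, at 0.646, 1.19 and 1.86 FPKM there, with a log2 fold change of −2.49 and a limma adjusted p of 0.144, and 4 had positive fold changes. The part of these cells in the marker levels was not tested.

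**Figure D4:**
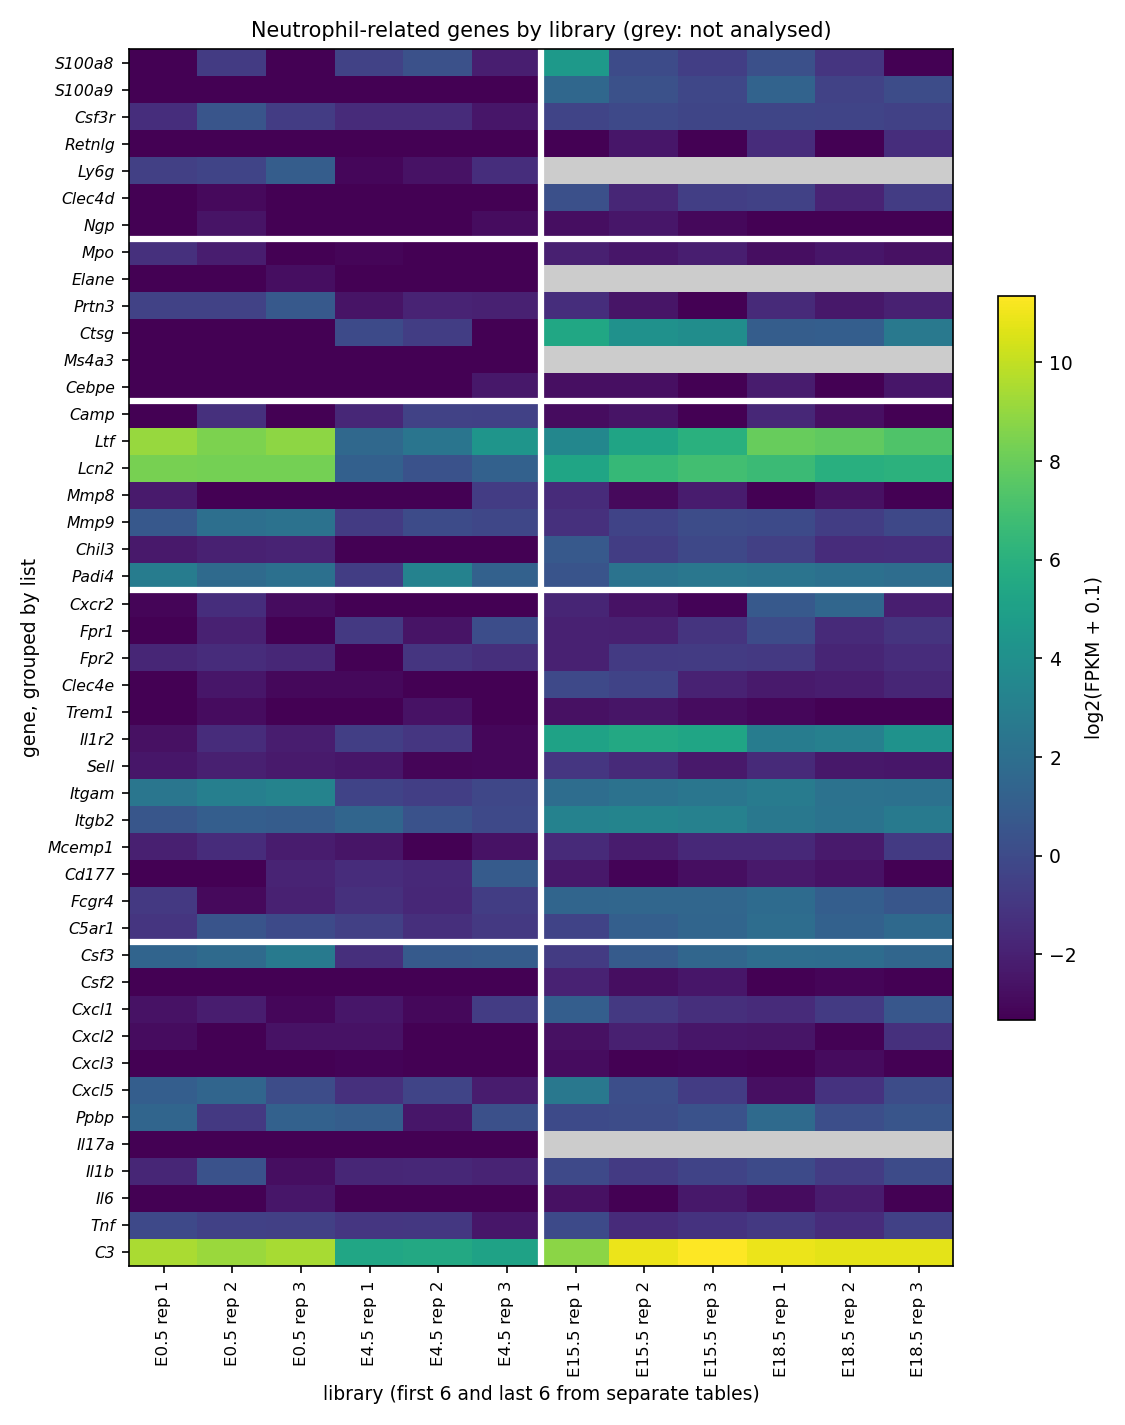
Level of the 7 markers and of the 4 neutrophil lists in each of the 12 libraries, as log2(FPKM + 0.1) in colour, with genes in rows grouped by list and grey where a gene was not analysed. The rows of Itgam also take in neighbouring genes, and the brightest rows, C3, Ltf and Lcn2, are not those of the markers at the top, which stay at or below 2.94 FPKM except S100a8 in E15.5 replicate 1.

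E15.5 replicate 1, which had the high S100a8, differed from the other E15.5 mice in other genes as well, named here after their values were seen. Of the 6 markers with a row, 3 were highest there among the E15.5 mice, S100a8, S100a9 and Clec4d, 1 was lowest, Csf3r, Retnlg was listed at 0 and Ngp lay between the others. Of the 35 genes of the 4 neutrophil lists with a row, 17 were highest and 13 lowest in this mouse. The share of all rows that were highest or lowest in it was not counted. The early granule genes were highest in 4 of 4, with Ctsg at 42.2 FPKM. Of these, Mpo at 0.145 against 0.0825 and 0.138 FPKM and Cebpe at 0.0532 against 0.0505 and 0 FPKM were only just highest. Their means were below the filter of 0.1 FPKM. Later granule genes were highest in 2 of 7, with 4 lowest, such as Ltf at 11.0 FPKM and Mmp9 at 0.303 against 0.681 and 0.953 FPKM. Surface receptors were highest in 5 of 13 and lowest in 5, and chemoattractants and growth factors highest in 6 of 11 and lowest in 4. Among the latter Cxcl5 was 5.84 against 1.06 and 0.522 FPKM, while Csf3 was 0.477 against 1.73 and 2.78 FPKM. Markers of mast cells, which also make Ctsg, were highest there in 6 of 6, with a summed level of 17.5 against 9.75 and 8.46 FPKM. The natural killer markers Ncr1 and Klrb1c were highest as well, with Ncr1 at 3.63 against 0.995 and 1.04 FPKM. Of 7 squamous markers 1 was highest, Krtdap at 12.6 against 5.17 and 4.86 FPKM, and 4 were lowest, among them Krt4 at 0. Krt5 was at 0 both there and in E15.5 replicate 3. Markers of uterine epithelium were lowest in 5 of 6, with Krt8 at 51.02 against 94.1 and 133 FPKM. Those of red blood cells were highest in 3 of 6 and lowest in 0, with a summed level of 1676 against 1462 and 889 FPKM. The part of this mouse's tissue makeup in its S100a8 level was not tested.

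The markers varied together only in part. Across the 6 libraries of the first table the Pearson correlation of log2(FPKM + 0.1) was positive for 9 of 10 pairs of markers, from −0.77 between S100a8 and Ly6g to 0.84 between Csf3r and Clec4d, with a median of 0.27. Across the 6 of the second it was positive for 10 of 15 pairs, from −0.49 between S100a8 and Retnlg to 0.74 between S100a8 and S100a9, with a median of 0.18. These correlations rest on 6 points that share their libraries and on values near 0, and they are given as a description. In the first table the mean of the centred marker values was highest in E0.5 replicate 2, at 0.61 against −0.26 to 0.09 elsewhere. S100a9 and Retnlg, constant at 0, added nothing to it. In the second table the mean was highest in E15.5 replicate 1. That rested on S100a8, since without it the mean was 0.34 there and 0.41 in E18.5 replicate 1 on the log2 scale. The genes most like this mean were Szrd1, with r = 0.987, Cacnb1, with 0.972, Slu7, with 0.959, a row of Med13l and Gm43052, with 0.958, and AC167036, with 0.947, of 11682 protein-coding rows in the first table. In the second, where the mean leans on S100a8, they were Ttc30a1, with r = 0.987, Sat1, with 0.986, and Aoah, Dph5 and Adal, each with 0.976, of 11564 rows. Among so many rows over 6 libraries, r values this high can arise by chance.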

How the data were processed

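Uterine RNA from 12 ICR mice was measured in 4 groups of 3, taken from the labels. The authors' methods name rRNA depletion, Cutadapt, Bowtie2, Tophat2, StringTie and Ballgown, whereas the labels describe poly(A) selection and list Bowtie 0.12.2, HISAT2 2.0 and StringTie 1.3.0 with no role. Selection changes which RNA is seen, and the conflict was not settled. FPKM values were deposited by the authors in 1 table per stage, assembled and normalized separately, and the count columns of the first table were also deposited by the authors, with strand and assignment not given in the sources used here. The value 0.0001 in the first table was set to 0.

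The first stage was tested on counts with the quasi-likelihood F-test of edgeR 4.0.16 (TMM factors), and the second with limma 3.58.1 (trend) on log2(FPKM + 0.1), on which folds of low genes are understated, in R 4.3.3. An edgeR SE is the log2 fold change divided by the square root of F. Rows needed a mean of 0.1 FPKM. Rows without a gene name, 1.02% to 1.86% of counts, were left out. Adjusted p-values are Benjamini-Hochberg over all tested rows. Stages were compared with limma over row pairs sharing Ensembl transcripts. Tests were checked on simulated data. Alternatives were other filters, call rules, scalings, pseudocounts, DESeq2 1.42.0, a replicate block, each library left out and, added after the files were seen, keeping unnamed rows. Text names the 7 markers and, per list, stage and direction, at most 3 called genes by fold, or the highest gene. Markers and lists were chosen with earlier results of these data known. An exact permutation test of 3 against 3 cannot go below p = 0.1. Counting floors cover counting error only. Tables were joined in pandas 2.3.3 and NumPy 2.4.6 under Python 3.11.15, and plots drawn with matplotlib 3.10.9.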

Additional observations from a re-analysis of the deposited data

Results flagged for a closer look

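For 3 of the 21 genes of the neutrophil lists tested in both stages, beside 2.77% of all pairs of rows, the effect of the day differed between the stages by limma's test of the difference itself. The 21 passed the filter within each stage, while the pairs passed it on the mean of the 12 libraries. Chil3, below the filter in the first stage, was not among the 21. Its difference was 2.40, with an adjusted p of 0.0477 by limma, which stayed under 0.05 in 2 of 14 alternatives. Lcn2, a later granule protein, was higher at E0.5 than at E4.5 while E18.5 and E15.5 overlapped, a difference of 7.38 on the log2 scale with an adjusted p of 9.65e-05. C3 of complement differed by 3.55, with an adjusted p of 0.0335, and the row of Itgam by 3.11, with an adjusted p of 0.00183, although this row took in Gm49368 in the first table and not in the second. The adjusted p stayed under 0.05 in 14 of 14 alternatives for Lcn2 and for Itgam, but in 4 of 14 for C3, where it rose to at most 0.0852. None of these 3 is among the 7 markers, and no library of any group was tested as far from the others, since groups held 3 mice.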

How the results depend on the processing

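Of the markers called at E0.5 against E4.5, 2 by the criterion, 0 had an adjusted p under 0.05, 0 were called with a mean of at least 1 FPKM, where no marker entered, 1 with a replicate block, 1 with limma on log2(FPKM + 0.1), 0 on log2(FPKM + 1) and 1 on log2(FPKM + 0.01), while the share of all rows called, 12.1%, was 11.9%, 10.4%, 12.6%, 4.83% and 12.7% in these last 5. Leaving out 1 library gave 1 to 2, which were both without E0.5 replicate 1, S100a8, lower at E0.5, and Ly6g without E0.5 replicate 2, Csf3r alone without E0.5 replicate 3, and Ly6g alone without any 1 of the E4.5 mice. In these fits 10.1% to 14% of all rows were called. Where the block or limma gave 1, Csf3r was lost. Ly6g and Csf3r kept their direction under all 15 alternatives each, with log2 fold changes of 0.84 to 4.22 and 0.48 to 2.30. At E18.5 against E15.5, where 0 were called, the replicate block gave 1, S100a8, with an adjusted p of 0.369 by limma, and leaving out 1 library gave 0 to 1. The share of all rows called was 5.6% with the block and 4.61% to 7.28% with 1 library left out. Fold changes turned positive without E15.5 replicate 1 (S100a9 0.26, Clec4d 0.17) and without E18.5 replicate 2 (S100a9 0.13, Clec4d 0.11). Stage differences turned negative without E15.5 replicate 1 (S100a8 −0.65, S100a9 −0.26, Clec4d −0.033), without E18.5 replicate 2 (S100a9 −0.13) and without E18.5 replicate 3 (S100a8 −0.0052). Leaving out 1 library at a time moved S100a9 from −0.75 to 0.26 and Clec4d from −0.84 to 0.17 at E18.5 against E15.5, and the stage difference from −0.65 to 1.95 for S100a8, from −0.26 to 0.75 for S100a9 and from −0.033 to 0.98 for Clec4d. For genes of the lists at E18.5 against E15.5, Lcn2 turned positive with quantile normalization (0.089) and ran from −0.48 to 0.32 with 1 library left out, positive in 4 of 6, all but E15.5 replicate 1 and E18.5 replicate 1, and C3 ran from −0.32 without E15.5 replicate 1 to 0.95. At E0.5 against E4.5 the block raised the adjusted p of Lcn2, C3, Itgam and Ltf to 0.0719, 0.0721, 0.0822 and 0.0930 by edgeR, where 0 of 52738 rows passed and the fold changes were 7.45, 4.03, 3.502 and 6.06, and in the second stage Clec4e lost its call under it, with a limma p of 0.0682. The cause was not tested. The stage differences of S100a9 and Clec4d come from the second stage alone. No source says that replicate numbers pair the mice, and same-numbered libraries deviated together with correlations of −0.067, 0.021 and −0.069 in the first stage and 0.027, −5.4e-05 and −0.059 in the second, so the block shares only a number. S100a9, Retnlg, Clec4d and Ngp had few or no counts in the first stage, so that little can be said of their change there. The reason for the missing counts was not tested. In the second stage depth is unknown.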
